A study of Mus musculus with 9 samples.

Results

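Levels of 10 immediate early genes were examined in leptin receptor (LEPR) lineage stromal cells that had lost Grem1, the gene of the secreted bone morphogenetic protein antagonist gremlin 1. The genes were the zinc-finger factors Egr1, Egr2 and Egr3, the orphan nuclear receptors Nr4a1, Nr4a2 and Nr4a3, the phosphatase gene Dusp1, Ier2, and the Krüppel-like factors Klf2 and Klf4. They were chosen by symbol, and all 10 were found among the 27179 gene rows of the deposited matrix. The cells were sorted from fibrous tissue around a tibial implant of mice, harvested 2 weeks after surgery, as cells negative for lineage markers and positive for tdTomato. The Grem1 conditional knockout (cKO) group, genotype Lepr-CreERT;Tdtomato;Grem1fl/fl, had 5 libraries, and the control group, genotype Lepr-CreERT;Tdtomato without floxed Grem1, had 4. Tamoxifen was given to induce Cre, which both genotypes carry, so that the control is a Cre-only control and the marked cells are those in which the Lepr-driven, tamoxifen-dependent Cre had acted, together with their descendants. The sources used here do not give ages, sexes or the number of animals behind a library, so p-values measure the spread between libraries, which may in part be technical.

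Immediate early genes are transcribed within minutes of a stimulus such as serum, a growth factor, stretch or injury, from factors that are already in the cell and need no new protein. Serum response factor with its ternary complex partners acts through the CArG box, and the cAMP response element binding protein CREB acts through the cAMP response element. Many of the genes encode transcription factors that set off later changes, and others, such as Dusp1, switch the inducing kinases off again. These genes are also known to be induced when tissue is digested to single cells for sorting, so that their levels in sorted cells can reflect the isolation as well as the tissue.

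Library depth, recovered as whole reads, was 76.3 to 87.2 M reads in cKO replicates 1 to 4, 43.5 M in cKO replicate 5, and 44.8 to 53.4 M in the 4 controls. Every library over 60 M reads was therefore a knockout. Grem1, the deleted gene, was lower in each cKO library than in each control (log2 fold change -2.72, exact two-sided permutation p = 0.00794, the smallest that 126 splits allow), with a mean normalized count of 89.6 ± 38.2 (SD, n = 5) in cKO libraries and 572 ± 171 (SD, n = 4) in control libraries. Summed normalized counts of 12 LEPR-lineage stromal markers were 3657948 to 8884628 in cKO libraries and 4187320.3 to 5398272 in controls, and none of the 12 was at 0 throughout. By the limma test used below 1 of the 12, Pdgfra, was higher and 0 lower, beside 4.61% and 2.87% of all genes. The groups did not overlap for 2 of the 12 as higher and 1 as lower, beside 6.82% and 4.6% of all genes. The libraries also held RNA of other cell types, given beside the genes with which it moved.

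Egr1, Dusp1 and Klf4 were higher in Grem1 cKO libraries, by 3.07-fold, 2.43-fold and 1.95-fold, and Nr4a2 was 2.29-fold lower. Their limma adjusted p-values were 0.0405, 0.0456, 0.0493 and 0.0439, over all 15832 genes tested. Thus 3 of the 10 genes passed as higher and 1 as lower, that is 40% of them, while 7.48% of all genes tested passed in either direction, 4.61% as higher and 2.87% as lower. At an unadjusted p under 0.05 there were 7 of the 10 genes, against 26.9% of all genes. The log2 fold changes of 8 of the 10 genes were above 0. Their median log2 fold change was 1.30, and that of all genes tested was -0.0039. The groups did not overlap for 3 of the 10 genes, Egr1 and Dusp1 being higher and Nr4a2 lower, and for 6.82% of all genes as higher and 4.6% as lower. All folds are ratios of geometric means of the normalized count plus 1.

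The 4 calls lie close to the threshold of 0.05 and rest on the full set of libraries. Leaving out any 1 of 8 libraries, namely each of the 4 controls and cKO replicates 1 to 4, left 0 of the 10 genes past the limma test, with 6 to 8 of them at an unadjusted p under 0.05. In these 8 fits 377 to 669 of all 15832 genes tested passed. The share of all genes at an unadjusted p under 0.05, 26.9% with all 9 libraries, was not counted in them. Leaving out cKO replicate 5 instead gave 6 genes as higher and 1 as lower, where 22.5% of all genes passed, 12.4% as higher and 10.1% as lower. Egr2, Egr3 and Ier2 were the 3 added genes. The quasi-likelihood test of edgeR on recovered reads passed 0 of the 10 and 4.96% of all genes. At an unadjusted p under 0.05 edgeR had 7 of the 10, and the share of all genes was not counted. DESeq2 passed 5 as higher and 1 as lower, beside 16.5% of all genes with an adjusted p, 10.2% as higher and 6.35% as lower. By the adjusted p of the authors' deposited table, 6 of the 10 were called higher and 1 lower at 0.05, where 17.1% of the genes with such a value were called, 10.5% as higher and 6.63% as lower.

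**Figure D1:**
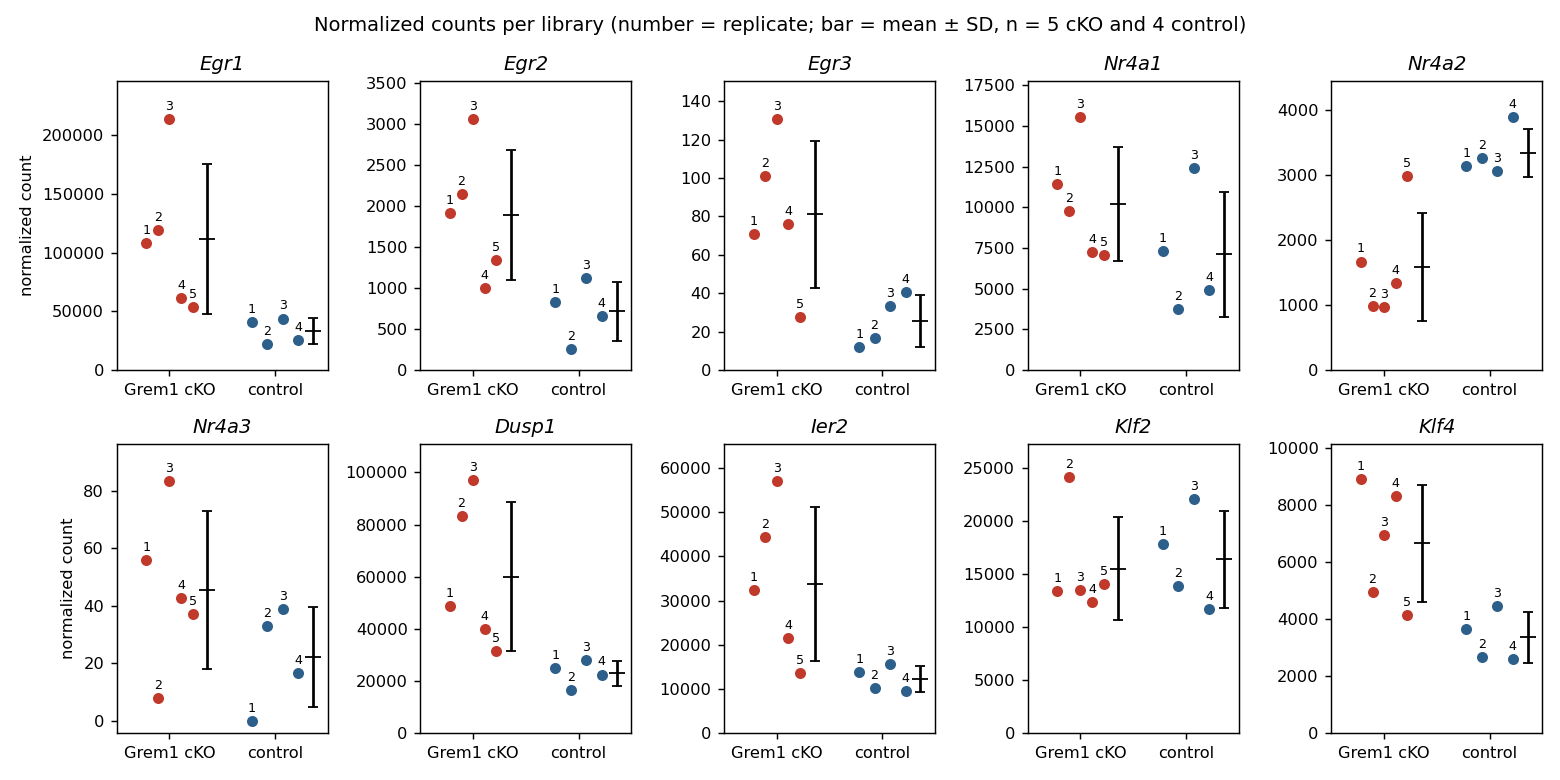
Normalized counts (y axis, linear, one scale per gene) of the 10 genes in 5 Grem1 cKO and 4 control libraries; each point is a library marked with its replicate number, and bars give the mean ± SD. The groups are apart for Egr1, Dusp1 and Nr4a2, and cKO replicate 5 is the cKO library nearest the controls for these 3.

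Control regions of these genes were compared in the 250 bases before to 50 after the RefSeq transcription start (assembly GRCm38.p6), where 7 of the 10 genes have entries (11 windows, since a gene can have several starts) and Egr1, Egr3 and Ier2 have none. Motifs were sought on both strands, namely the CArG box, the full cAMP response element TGACGTCA, its half-site TGACG (which is also part of the full element) and the EGR binding site GCGGGGGCG. A half-site was found in all 7 genes and in 20.8% of the 32851 promoters of the table. A CArG box was found for Egr2 alone (1.63% of all promoters), a full element for Dusp1 alone (1.79%), and an EGR site for Nr4a1, Klf2 and Klf4 (2.91%). The 250 bases before the start are shown for Dusp1, Klf4 and Nr4a2, which passed the test, and for Nr4a1 as the relative of Nr4a2 that did not, and 30 bases round its CArG box for Egr2, with every motif match in capitals. They are chr17:26508473-26508722 (minus strand) for Dusp1, chr4:55532476-55532725 (minus) for Klf4, chr2:57124004-57124253 (minus) for Nr4a2, chr15:101266596-101266845 (plus) for Nr4a1 and chr10:67537784-67537813 (plus) for Egr2.
Dusp1: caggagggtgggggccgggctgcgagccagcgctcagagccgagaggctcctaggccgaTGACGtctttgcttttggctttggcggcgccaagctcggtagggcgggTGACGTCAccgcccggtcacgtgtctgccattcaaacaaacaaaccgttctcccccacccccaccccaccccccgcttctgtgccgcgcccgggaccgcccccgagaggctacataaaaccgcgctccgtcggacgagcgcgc
Klf4: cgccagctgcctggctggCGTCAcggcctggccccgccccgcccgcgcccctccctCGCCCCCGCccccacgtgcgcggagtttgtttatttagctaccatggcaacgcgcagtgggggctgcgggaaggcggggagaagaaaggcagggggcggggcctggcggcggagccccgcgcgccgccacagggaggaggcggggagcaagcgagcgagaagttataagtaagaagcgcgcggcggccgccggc
Nr4a2: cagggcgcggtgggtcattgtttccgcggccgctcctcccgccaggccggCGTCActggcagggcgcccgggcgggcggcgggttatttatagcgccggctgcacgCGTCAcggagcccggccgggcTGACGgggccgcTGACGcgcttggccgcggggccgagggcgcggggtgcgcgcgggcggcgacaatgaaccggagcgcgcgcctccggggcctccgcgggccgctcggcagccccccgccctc
Nr4a1: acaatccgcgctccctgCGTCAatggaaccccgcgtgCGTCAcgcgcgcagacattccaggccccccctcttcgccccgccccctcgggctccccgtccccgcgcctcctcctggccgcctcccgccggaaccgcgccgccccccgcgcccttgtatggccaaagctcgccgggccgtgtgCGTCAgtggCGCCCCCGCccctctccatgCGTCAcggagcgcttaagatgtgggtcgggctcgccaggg
Egr2: cctgttcctcagtCCATATATGGgcagcga
The Nr4a1 and Nr4a2 windows each hold 4 half-sites, so that the gene that fell and its relative that did not pass do not differ in that count. A match describes these letters and is no evidence of binding in these cells.

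Egr1 encodes a zinc-finger factor that is among the most rapidly induced genes after serum or injury. Its normalized counts were 108548, 119380.4, 214006, 61631 and 53680.03 in cKO replicates 1 to 5, against 41400.3, 22677, 43957 and 25589 in control replicates 1 to 4. Every cKO library was above every control, with replicate 3 highest and replicates 4 and 5 nearest the controls. The means were 111449 ± 64048 (SD, n = 5) in cKO libraries and 33406 ± 10824 (SD, n = 4) in controls, and the log2 fold change was 1.62 (SE 0.40, limma adjusted p = 0.0405).

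Egr2, known as a master regulator of myelination in Schwann cells and also induced by serum, differed by about as much but did not pass. It had 1920.4, 2146, 3065, 1004 and 1339.5 normalized counts in cKO replicates 1 to 5, against 829.6, 254, 1122 and 659.5 in control replicates 1 to 4. The groups overlapped through cKO replicate 4, which was below control replicate 3. The log2 fold change was 1.49 (SE 0.45, 95% interval 0.49 to 2.48, limma adjusted p = 0.0687), and 1.58 without cKO replicate 5 (limma adjusted p = 0.0466).

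Egr3, a family member with roles in lymphocytes and muscle spindles, was near the bottom of the range measured. It had 70.7, 101, 131, 75.9 and 27.8 normalized counts in cKO replicates 1 to 5 and 12.2, 16.6, 33.4 and 40.5 in control replicates 1 to 4. These values rest on 21 to 193 recovered reads in cKO libraries and 9 to 31 in controls. The first 4 cKO replicates were above all controls, and cKO replicate 5 was within the control range. The log2 fold change was 1.61 (SE 0.66, limma adjusted p = 0.149), and 1.95 without cKO replicate 5 (limma adjusted p = 0.0426).

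The 3 NR4A genes encode nuclear receptors that act without a classical ligand and are controlled mainly by their level. Nr4a2, known for its part in dopamine neuron development and as an early response gene in stromal cells and macrophages, was the only one of the 10 to pass as lower. It had 1674, 987, 980.4, 1338 and 2986 normalized counts in cKO replicates 1 to 5 and 3145, 3262, 3069.5 and 3892 in control replicates 1 to 4. All cKO libraries were below all controls, but cKO replicate 5 lay just under the lowest control while the other 4 were far below. The means were 1593 ± 829.7 (SD, n = 5) in cKO libraries and 3342 ± 375 (SD, n = 4) in controls, a log2 fold change of -1.19 (SE 0.30, limma adjusted p = 0.0439).

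Nr4a1, induced by T cell receptor signals and by growth factors, had 11415, 9774, 15524, 7258 and 7043 normalized counts in cKO replicates 1 to 5. In control replicates 1 to 4 it had 7334, 3763, 12421 and 4895. The groups overlapped widely, since control replicate 3 exceeded all cKO libraries but replicate 3, and the log2 fold change of 0.61 (SE 0.35, 95% interval -0.17 to 1.38) did not pass (limma adjusted p = 0.291).

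Nr4a3 was the lowest of the 10 genes, with 55.9, 8.08, 83.4, 42.6 and 37.0 normalized counts in cKO replicates 1 to 5 and 0, 33.1, 38.8 and 16.8 in control replicates 1 to 4. Control replicate 1 had 0 reads, which allows up to 3 reads or 4.05 normalized counts there, and the other libraries had 12 to 123. The log2 fold change of 1.58 had an SE of 1.19 (limma adjusted p = 0.424) and was 0.37 without control replicate 1, so that it rests largely on that library.

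Nr4a1 and Nr4a2 thus stood in different proportions in the 2 genotypes. The ratio of their normalized counts was 6.82, 9.9, 15.8, 5.42 and 2.36 in cKO replicates 1 to 5, against 2.33, 1.15, 4.05 and 1.26 in control replicates 1 to 4. Replicates 1 to 4 of the knockout were above every control, and replicate 5 was within the control range. No test was made of this ratio, which was chosen after its values were seen.

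**Figure D2:**
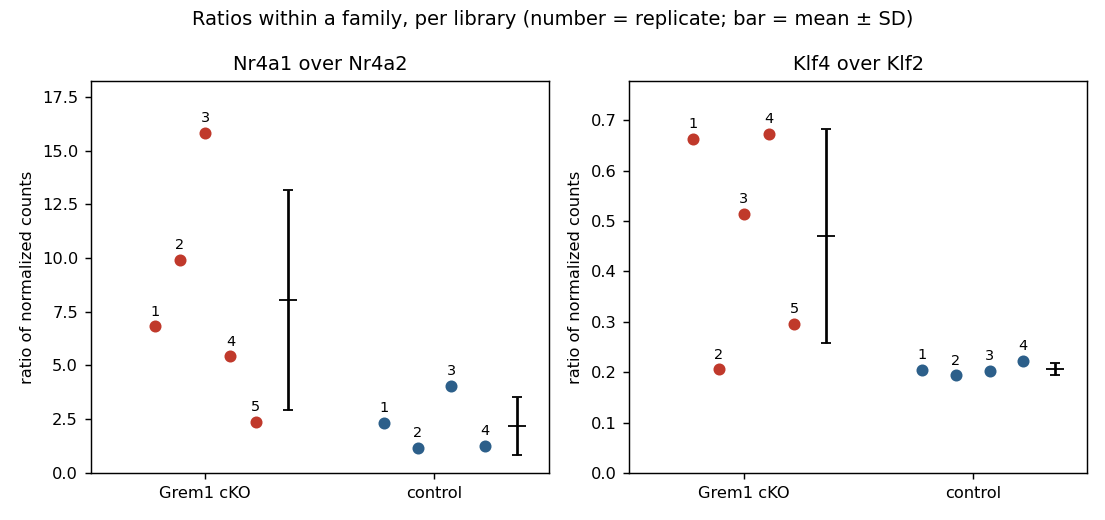
Ratios of normalized counts (y axis, linear) of Nr4a1 over Nr4a2 and of Klf4 over Klf2 in each library, with replicate numbers and mean ± SD for 5 Grem1 cKO and 4 control libraries. Control ratios of Klf4 over Klf2 lie between 0.194 and 0.222, and cKO ratios between 0.205 and 0.672.

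Dusp1 encodes a nuclear phosphatase that inactivates the mitogen-activated protein kinases p38, JNK and ERK and so ends the signal that induces it. Its normalized counts were 48798, 83250.4, 96908, 39793 and 31469 in cKO replicates 1 to 5, against 24753, 16542, 27941 and 22415 in control replicates 1 to 4. The groups did not overlap, and the order of the 5 cKO libraries was the same as for Egr1. The means were 60043 ± 28507 (SD, n = 5) in cKO libraries and 22913 ± 4813 (SD, n = 4) in controls, with a log2 fold change of 1.28 (SE 0.33, limma adjusted p = 0.0456).

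Ier2, which encodes a small nuclear protein of the immediate early response, followed the same order of cKO libraries. It had 32283, 44383, 57179, 21553 and 13563 normalized counts in cKO replicates 1 to 5 and 13811, 10225, 15567 and 9477 in control replicates 1 to 4. Replicates 1 to 4 of the knockout were above all controls and replicate 5 was among them. The log2 fold change was 1.32 (SE 0.38, limma adjusted p = 0.0619), and 1.60 without cKO replicate 5 (limma adjusted p = 0.00617).

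Klf4, one of the factors used to reprogram somatic cells and an early response gene of fibroblasts and smooth muscle, was higher in cKO libraries. It had 8899, 4955, 6939.7, 8295 and 4144 normalized counts in cKO replicates 1 to 5 and 3649, 2678, 4456 and 2603 in control replicates 1 to 4. Only cKO replicate 5 fell below the highest control, and the order of the cKO libraries differed from that of Egr1, with replicate 1 highest. The log2 fold change was 0.97 (SE 0.26, limma adjusted p = 0.0493).

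Klf2, induced by laminar flow in endothelium through the kinase ERK5 and its partner MEF2, did not pass the test. It had 13409, 24129, 13523, 12339.6 and 14052 normalized counts in cKO replicates 1 to 5, and 17864, 13830.4, 22076 and 11729 in control replicates 1 to 4. The fold was 0.943 with a 95% interval of 0.656 to 1.36 (limma adjusted p = 0.846), which leaves room for a decrease or an increase within those bounds. The ratio of Klf4 to Klf2 was nearly constant in the controls, at 0.205 ± 0.0119 (SD, n = 4), while in cKO libraries it averaged 0.470 ± 0.213 (SD, n = 5) with replicate 2 at 0.205. Controls 1 and 3, which are high in endothelial RNA, were the 2 controls with most Klf2. They were also the 2 highest controls for Egr1, Egr2, Nr4a1, Dusp1, Ier2 and Klf4. Without controls 1 and 3 the log2 fold change of Klf2 was 0.24 in place of -0.085.

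**Figure D3:**
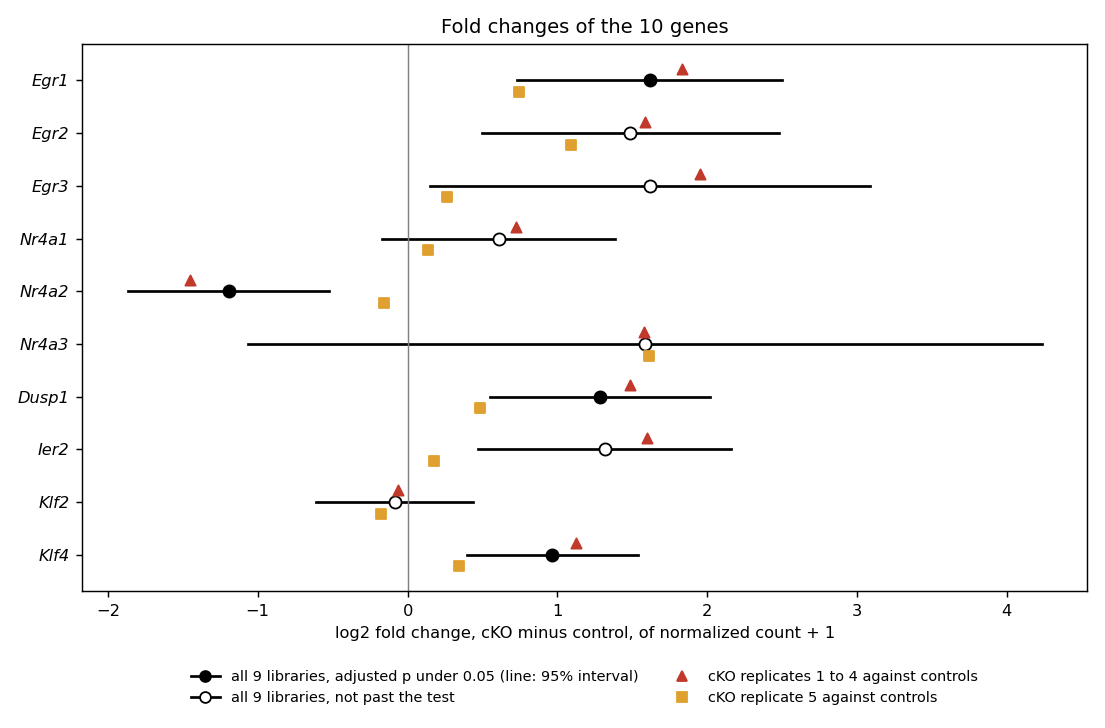
Log2 fold change, cKO minus control, of each gene (x axis; circles with 95% intervals for all 9 libraries, filled where the limma adjusted p is under 0.05), with the value for cKO replicates 1 to 4 against controls (triangles) and for cKO replicate 5 against controls (squares). Squares lie nearer 0 than triangles for 8 of the 10 genes, the exceptions being Nr4a3 and Klf2.

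The 2 depth classes and the behaviour of cKO replicate 5 cannot be told apart in these libraries. In the comparison at like depth, cKO replicate 5 against the 4 controls, the log2 differences were 0.74 for Egr1, 1.09 for Egr2, 0.48 for Dusp1, 0.34 for Klf4 and -0.16 for Nr4a2. In that comparison 0 of the 10 genes passed the limma test and 0 had an unadjusted p under 0.05, with the spread taken from the controls alone, beside 0.524% of all genes called. For 7 of the 10 genes cKO replicate 5 lay nearer the control mean than the mean of the other cKO libraries. When reads were drawn at random so that each library had the total of the smallest, an alternative chosen after seeing the data, 3 of the 10 genes were higher and 1 lower. Of all 15832 genes tested, 714 were higher and 442 lower in that setting.

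Within the knockout group 3 of the 10 genes had the same order of libraries. Egr1, Dusp1 and Ier2 ran from replicate 3 through 2, 1 and 4 to 5, while the other 7 had other orders. How many of all genes tested have that order was not counted. Egr2, Egr3, Nr4a1 and Nr4a3 were also highest in replicate 3, Klf4 was highest in replicate 1 and Klf2 in replicate 2, and Nr4a2 was lowest in replicates 3 and 2 and highest in 5. Together the 10 genes made up 0.404%, 0.493%, 0.719%, 0.265% and 0.223% of all normalized counts in cKO replicates 1 to 5, against 0.187%, 0.113%, 0.227% and 0.129% in control replicates 1 to 4. In the controls, replicates 3 and 1 were above 4 and 2 for Egr1, Egr2, Nr4a1, Dusp1, Ier2, Klf2 and Klf4. For Nr4a2 they were below 4 and 2, and Egr3 and Nr4a3 had other orders.

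**Figure D4:**
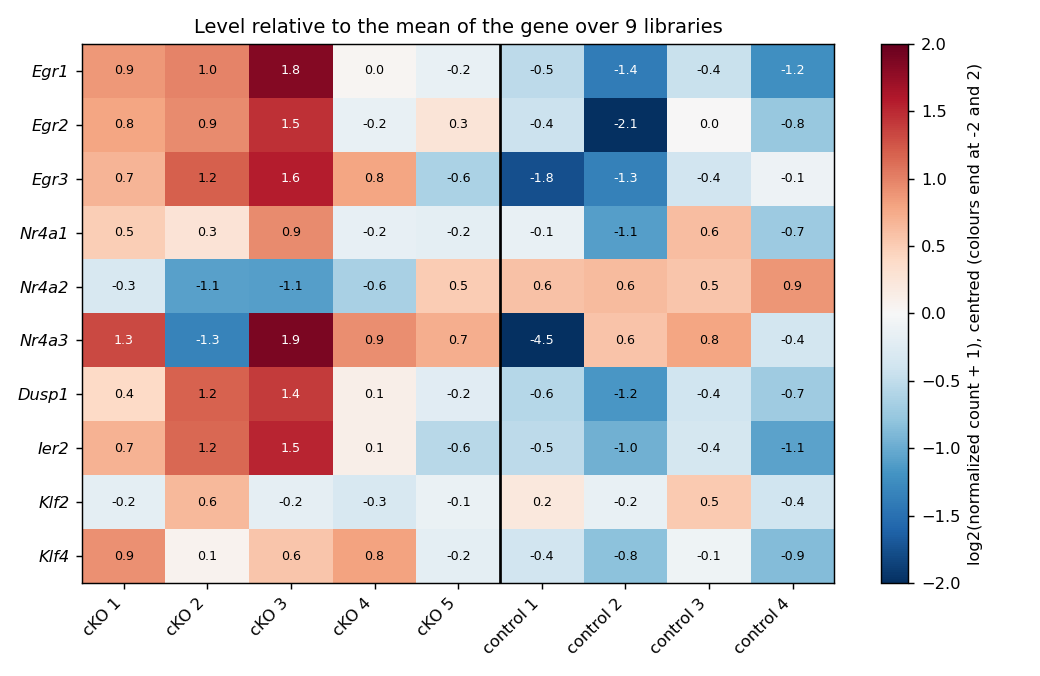
Log2(normalized count + 1) of each gene (rows) in each library (columns, Grem1 cKO left of the line and control right), minus the mean of that gene over all 9 libraries. cKO replicate 3 is the highest library for Egr1, Egr2, Egr3, Nr4a1, Nr4a3, Dusp1 and Ier2, and the values of Nr4a3 in control replicate 1, where it had 0 reads, and of Egr2 in control replicate 2 lie beyond the colour scale.

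Of 8 muscle stem cell genes, 5 had the order of knockout libraries seen for Egr1, namely Pax7, Myf5, Cdh15, Chodl and Vcam1. The share of all genes with that order was not counted, so these counts show no particular link. Myod1 and Calcr were highest in cKO replicate 2 and lowest in replicate 5, and Myog, a gene of differentiating muscle cells, was highest in replicate 5. Pax7, which marks these cells, had 789, 1696, 1928, 566 and 82.0 normalized counts in cKO replicates 1 to 5 and 16.2, 2.76, 10.8 and 2.79 in control replicates 1 to 4, so that cKO replicate 3 was highest and replicate 5 lowest as for Egr1. By the limma test 7 of the 8 were higher, 87.5% beside 4.61% of all genes, and the other, Vcam1, is also a stromal gene. Without Vcam1 their summed level was 10284 to 84649 in cKO libraries and 1006 to 3272 in controls, and in cKO replicates 1 to 5 it was 41296, 77670, 84649, 27964 and 10284. None of the 8 was at 0 in a whole group. Because these are bulk samples, more cells of a type and more RNA per cell cannot be told apart, and the part of muscle stem cell RNA in the levels of Egr1, Dusp1 and Ier2 was not tested.

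RNA of other cell types differed as well. All 17 tested skeletal muscle fibre genes were higher, beside 4.61% of all genes. The sum of the list was 97836 to 873386 in cKO libraries and 411 to 2509 in controls, and Myh7 alone was at 0 in all controls. The sums were 555614, 313298, 97836, 873386 and 107012 in cKO replicates 1 to 5, and the part of muscle fibre RNA in the levels of the 10 genes was not tested. Of 12 Schwann cell markers other than Egr2, 7 were higher, 58.3% beside 4.61% of all genes. The sum of the 12 was 59839 to 138107 in cKO libraries and 23038 to 31017 in controls, and none was at 0 throughout a group. Beside Egr2, Sox10, the glial regulator upstream of it, had 1432, 806, 1627, 1101 and 578 in cKO replicates 1 to 5 and 399.9, 99.3, 291 and 55.9 in control replicates 1 to 4. The part of Schwann cell RNA in the level of Egr2 was not tested.

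Endothelial markers bear on Klf2 and Klf4, which endothelium expresses. Of 16, 3 were lower by the limma test, 18.75% beside 2.87% of all genes. A log2 fold change above 0 was seen for 1, and the median was -3.25. The sum of the 16 was 9978 to 20138 in cKO libraries, against 16145 and 22044 for control replicates 2 and 4. It was far higher, at 289196 and 354494, for control replicates 1 and 3. Of 16 tested macrophage and monocyte markers, which bear on Nr4a2, 1 was lower, 6.25% beside 2.87% of all genes. A log2 fold change above 0 was seen for 0 of these markers, and the median was -2.49. Their sums were 6559.99 to 133146 in cKO libraries and 32794 to 71526 in controls. The sum was below all controls in the cKO libraries other than replicate 2, which had the highest sum of all and one of the 2 lowest levels of Nr4a2. Of 10 neutrophil markers and 5 tested T and NK cell markers 0 passed, beside 7.48% of all genes. Neutrophil sums were 46176 to 783160.3 in cKO libraries and 131071 to 580048 in controls. T and NK cell sums were 251 to 2549 in cKO libraries and 437 to 1813 in controls, with Cd8a and Cd3g at 0 in all controls. The 8 chondrocyte markers had sums of 135631 to 1106859.9 in cKO libraries and 1799602 to 4199776 in controls, and 4 were lower. No marker of the endothelial, macrophage, neutrophil or chondrocyte lists was at 0 throughout a group, and the part of these cell types was not tested.

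Other early response genes did not all follow. Of 33 tested members of a list of further immediate early and dissociation-response genes, 3 rose and 2 fell, 15.2% of the list beside 7.48% of all genes, and their median log2 fold change was 0.41. Myc, a growth regulator, rose 1.8-fold, with 5494, 6828, 9134, 5333 and 4581 normalized counts in cKO replicates 1 to 5 and 3029, 3882, 3206 and 3485 in control replicates 1 to 4 (limma adjusted p = 0.0301). The AP-1 genes Jun and Jund rose 2.33-fold and 2.18-fold (limma adjusted p of 0.0319 and 0.039). The stress gene Gadd45b fell 2.5-fold, having 1433, 1222, 1241, 897 and 2610.3 in cKO replicates 1 to 5 and 3437, 3449, 2996 and 4031 in control replicates 1 to 4 (limma adjusted p = 0.0207). As for Nr4a2, all cKO libraries were below all controls and replicate 5 was the nearest to them. Fosl2, an AP-1 member, fell 1.55-fold (limma adjusted p = 0.0213). Without cKO replicate 5 the list had 12 higher and 3 lower, beside 12.4% and 10.1% of all genes. Leaving out any 1 of the other 8 libraries gave 0 to 1 higher and 0 to 2 lower, and 0 in either direction in 3 of these 8 fits.

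A further list held 24 regulators upstream of these genes, such as serum response factor, its partners, CREB and the kinases of the ERK pathway. Their median log2 fold change was -0.04, and 1 passed, 4.17% of the list beside 7.48% of all genes. This was Elk3, a ternary complex factor that mostly represses serum response genes and is abundant in endothelium, with 2801 ± 1745 normalized counts (SD, n = 5) in cKO libraries and 10138 ± 4610.3 (SD, n = 4) in controls (3.8-fold lower, limma adjusted p = 0.0271). Its controls 1 and 3, high in endothelial RNA, had 12306 and 15577, and controls 2 and 4 had 6859 and 5810.1. Its call was lost in 7 of the 8 fits that leave out 1 library other than cKO replicate 5. Of 8 partners and corepressors of EGR and NR4A factors, 2 fell, 25.0% of the list beside 2.87% of all genes as lower. Nab1, a corepressor that binds EGR1 and EGR2, had 4459 ± 597 in cKO libraries and 6689 ± 666 in controls (1.5-fold lower, limma adjusted p = 0.0231), without overlap. Hif1a, the oxygen-sensing factor, had 6919 to 8996 in cKO replicates 1 to 4, 29171 in cKO replicate 5 and 27567 to 37418 in controls (limma adjusted p = 0.0284). Leaving out 1 library other than cKO replicate 5 left 0 of the list in 6 of 8 fits and 1 in the other 2, and edgeR passed 1, with Hif1a at an adjusted p of 0.0752.

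Of 11 other dual specificity phosphatases 0 passed the limma test, beside 7.48% of all genes, and edgeR and DESeq2 also passed 0. At an unadjusted limma p under 0.05 there were 2, beside 26.9% of all genes. The smallest p belonged to Dusp7 (log2 fold change -0.49, limma adjusted p = 0.102) and Dusp9 (-4.05, limma adjusted p = 0.123), the second at 0 in 3 cKO libraries. Among 17 tested further KLF and IER genes 2 rose, 11.8% of the list beside 4.61% of all genes as higher. Without cKO replicate 5 there were 7, beside 12.4% of all genes, and without 1 of the other libraries there was 1 in 7 of 8 fits and 2 in the other. Klf15, a glucocorticoid-induced factor known in muscle and fat, had 2560.00, 1899.9, 2978, 2192 and 525 normalized counts in cKO replicates 1 to 5 and 219, 80.0, 164 and 86.6 in control replicates 1 to 4 (13.9-fold, limma adjusted p = 0.00435), without overlap. Klf5, a growth-associated relative of Klf4, rose 3.25-fold (limma adjusted p = 0.0413), a call lost in 7 of those 8 fits and with edgeR (adjusted p = 0.0645), whereas Klf15 kept its call in all 8. Ier3 and Ier5 belong to this list and to that of further early genes. Of 4 genes linked to KLF2 (Nos3, Thbd, S1pr1 and Tek) 0 passed the limma test, beside 7.48% of all genes, and edgeR passed 0. An unadjusted limma p under 0.05 was seen for 1, beside 26.9% of all genes. DESeq2 passed 2 as lower, beside 6.35% of all genes. Nos3, the endothelial nitric oxide synthase, followed the endothelial markers, with 14.1 to 354 in cKO libraries, against 239 and 286 for control replicates 2 and 4 and, far higher, 8440.3 and 10116 for control replicates 1 and 3 (limma adjusted p = 0.0549). S1pr1, a sphingosine 1-phosphate receptor, had 3132 ± 816 in cKO libraries and 9246 ± 8279.6 in controls (limma adjusted p = 0.411).

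**Figure D5:**
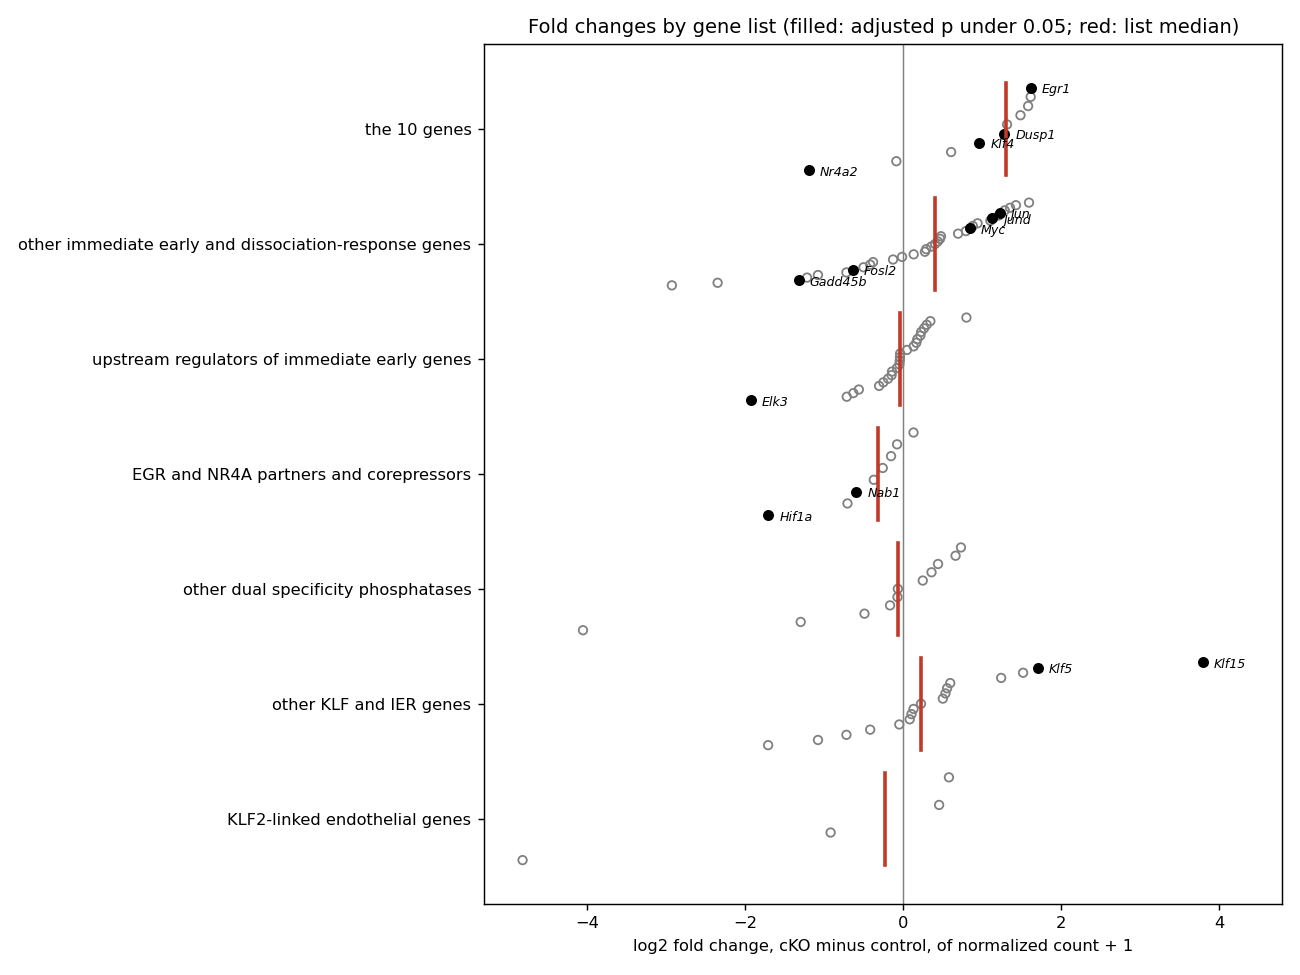
Log2 fold change, cKO minus control, of every tested gene of each list (x axis; filled and named where the limma adjusted p is under 0.05), with the list median as a red line; height within a list only orders the genes. The median of the 10 genes is 1.30, and those of the other lists lie between -0.31 and 0.41.

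Levels per length, as reads per kilobase of merged exons (GENCODE M21) and per M recovered reads (RPKM), spread widely. In cKO libraries Egr1 (434 ± 253), Ier2 (387 ± 201) and Dusp1 (316 ± 149.9; SD, n = 5) had the highest means, with overlapping spreads. They were followed by Klf2 (146 ± 43.5), Nr4a1 (50.8 ± 17.9) and Klf4 (38.1 ± 12.2), and then by Egr2 (9.73 ± 4.15) and Nr4a2 (6.84 ± 3.56), which overlap in spread. These spreads are between libraries, and levels per length were not compared gene by gene within a library. In controls Klf2 (146 ± 48.3), Ier2 (133 ± 38.0), Egr1 (123 ± 45.5) and Dusp1 (114 ± 29.2; SD, n = 4) had the highest means, with overlapping spreads. After them came Nr4a1 (33.7 ± 20.05) and Klf4 (18.1 ± 5.71), and then Nr4a2 (13.4 ± 1.23) above Egr2 (3.50 ± 1.92). Egr3 was low throughout, with 0.321 ± 0.152 in cKO libraries, against 0.0953 ± 0.0507 for the control group. Nr4a3 was the lowest, with 0.133 ± 0.0815 in cKO libraries, against 0.0606 ± 0.0492 for the control group.

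The genes whose profile over the 9 libraries was most like the mean profile of the 10 were Podxl2, Atrnl1, Bckdha, Fgf1 and Gpd1l. Their root mean squared differences from it were 0.176, 0.19, 0.197, 0.211 and 0.219 log2 units, the smallest of 14151 genes ranked. The same measure was 0.334 for Nr4a1, 0.365 for Klf4, 0.376 for Dusp1 and 0.516 for Egr1, against 1.27 for Nr4a2 and 1.56 for Nr4a3. The mean profile includes the 0 of Nr4a3 in control replicate 1.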

How the data were processed

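RNA of sorted cells was measured by polyadenylated RNA sequencing, with paired reads of 150 bases per the labels' protocols. The authors deposited normalized counts (a signal), in which each library's gene counts are scaled by its own size factor. STAR, featureCounts, DESeq2 and the build mm39 are named in the submitters' processing notes. The sources used here do not give strand setting, annotation or filters, so that reads of overlapping, antisense or near-identical genes may be misassigned. Per the file headers, the authors' second deposited table compares the genotypes and holds a mean signal, log2 fold changes, a score and p-values.

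Each library's values were whole multiples of 1 step (tolerance 0.01 of a read), and at least 99.99% of the values above 0 came out whole. These recovered reads served for depth and for count tests. Floors (3 reads) cover counting error only. Symbols came from a GRCm38.p6 gene table (25275 of 27179 IDs matched), used for names and for promoters, whose coordinates are of that build and not of mm39. Merged exon lengths came from the same older build.

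Genotypes were compared with limma 3.58.1 (R 4.3.3, eBayes with trend, two-sided) with genotype alone in the model and a pseudocount of 1 before the log2 step. A gene was tested if 4 or more libraries reached 10, which left 15832 genes. P-values were adjusted over these genes by the Benjamini-Hochberg method and called at 0.05. All 10 genes passed the filter. The limma fit was tried on simulated counts with 1 fixed spread and planted changes larger than those of the genes called here. That trial does not cover changes of the size called here. The alternatives included edgeR 4.0.16 (786 genes called) and DESeq2 1.42.0. Named genes were the 10, Grem1, from each list up to 4 passing genes in each direction or the 2 of smallest p, marker genes set beside a result, and the 5 genes of most like profile. The genes and lists were chosen with earlier results of these data known, and 1 gene of the lists is not reported here. No pairing of the samples by replicate number was seen.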

Additional observations from a re-analysis of the deposited data

Results flagged for a closer look

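Klf2 in cKO replicate 2 stood apart from its group, with 24129 normalized counts against 12339.6 to 14052 in the other 4 cKO libraries. The same library had the highest macrophage, neutrophil, T and NK cell and LEPR-lineage stromal marker sums and the lowest endothelial sum. The part of these cell types in that value was not tested. Chance sets 1 sample apart in this way in about 1 of 20 groups, and 20 groups were examined.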

How the results depend on the processing

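Directions held for the 10 genes under the alternatives that gave a value (Nr4a3 was not tested with the filter of 50), except for Klf2, which was 0.24 without controls 1 and 3 together and 0.073 without control replicate 3, and for S1pr1 (0.59 without controls 1 and 3). The calls depended on the setting. With no filter on low values (more genes tested) 0 of the 10 genes passed as higher and 0 as lower at log2 fold changes of 1.62 for Egr1, 1.28 for Dusp1, 0.97 for Klf4 and -1.19 for Nr4a2. With edgeR 786 genes passed and 0 and 0 of the 10 (Egr1 1.72, Dusp1 1.37, Klf4 0.97, Nr4a2 -1.09). Klf4 missed the threshold with a pseudocount of 0.5 and with TMM scaling (0.97 in both). With depth class as a covariate 78 genes passed, and at like depth 83, with 0 and 0 of the 10 (Egr1 0.74, Dusp1 0.48, Klf4 0.34, Nr4a2 -0.16) and Grem1 at -3.16 without a call in both. Without controls 1 and 3 together 338 passed, with 0 and 0 of the 10 (Egr1 2.03, Dusp1 1.51, Klf4 1.27, Nr4a2 -1.29, Grem1 -2.36). DESeq2 passed 2546 genes and 5 of the 10 as higher, adding Egr2 (1.40) and Ier2 (1.46). Library quality weights passed 4056 and 6, adding Egr2 (1.57), Egr3 (1.69) and Ier2 (1.44). Without cKO replicates 2 and 5, chosen after seeing the data, 3376 passed, with Ier2 at 1.51. The cause of these changes was not tested, beyond the number of genes or samples that an alternative removes.

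A replicate block passed 2715 genes and 6 of the 10 as higher, adding Egr2 (1.58), Ier2 (1.60) and Nr4a1 (0.73). No control has replicate number 5, so cKO replicate 5 adds nothing to the log2 fold changes of this fit. They equal those without cKO replicate 5, such as 1.83 for Egr1 in both. Same-numbered libraries correlated between -0.011 and 0.07 after removal of group means, and 3 of 8 libraries correlated best with their own number. No pairing by number was thus seen, but so few libraries cannot exclude that same-numbered ones were handled together.

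Leaving out 1 library at a time gave 377 to 3562 genes, 0 to 6 of the 10 as higher and 0 to 1 as lower. The log2 fold changes ranged from 1.34 to 1.83 for Egr1, 1.05 to 1.76 for Egr2, 1.33 to 1.95 for Egr3, 0.35 to 0.93 for Nr4a1, -1.45 to -1.05 for Nr4a2, 0.37 to 2.14 for Nr4a3, 1.08 to 1.48 for Dusp1, 1.08 to 1.60 for Ier2, -0.26 to 0.073 for Klf2, 0.85 to 1.12 for Klf4 and -2.93 to -2.51 for Grem1. Nr4a3 and Egr3 rest on few reads, as low as 0 and 9 in a library, yet thinning moved neither by much (1.60 for both).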
